A study of Mus musculus with 4 samples.

Results

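The monocyte chemokines of the Ccr2 axis were followed in mouse heart: the ligand genes Ccl2, Ccl7, Ccl8 and Ccl12, the receptor gene Ccr2, and the antibody tag for the CCR2 protein (CD192). They were taken by name, so they are 5 of 32285 genes in the count tables and the tag is 1 of 198. The method was CITE-seq, which counts transcripts and antibody tags of the same droplets as unique molecular identifiers (UMIs). There were 2 libraries, each made from hearts of 4 C57BL6J mice pooled before sorting. One was from mice given an agonist antibody against CD40, a receptor of the tumour necrosis factor family on antigen-presenting cells, and one from mice given rat IgG as isotype control. All mice carried the same strain label and no other allele is named. The dose and the interval to tissue collection are not given in the sources used here. Atria were removed, the hearts were digested with enzymes, and animals cannot be told apart within a library.

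Chemokines are small secreted proteins that direct cell movement, and Ccr2 is the G protein-coupled receptor through which Ly6C-high monocytes leave the bone marrow and enter inflamed tissue. Ccl2 and Ccl7 are its best known ligands, Ccl12 is a mouse ligand of Ccr2, and mouse Ccl8 is better known as a ligand of Ccr8. In the mouse heart, macrophages without Ccr2 are largely resident, whereas macrophages with Ccr2 derive from blood monocytes.

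The 4 ligand genes lie together on chromosome 11 in GRCm38.p6, within 81223 bp from 82035577 to 82116799, and Ccr2 lies on chromosome 9 from 124101918 to 124109140. Each is a protein-coding gene that no other annotated gene overlaps in RefSeq. Along the chromosome the order is Ccl2, Ccl7, Ccl11, the long noncoding RNA gene Gm38913, Ccl12 and Ccl8. Upstream windows of 3 of the 5 genes matched the RefSeq table by symbol. Those of Ccl12 (chr11:82101595-82101844, plus strand) and Ccl8 (chr11:82114935-82115184, plus strand) are shown, because these neighbouring ligand genes had the highest ratios between the libraries in phagocytes. Capitals mark GGGAAA on either strand, the letters that open many kappaB sites, and the TATA box letters TATAAA.

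Ccl12: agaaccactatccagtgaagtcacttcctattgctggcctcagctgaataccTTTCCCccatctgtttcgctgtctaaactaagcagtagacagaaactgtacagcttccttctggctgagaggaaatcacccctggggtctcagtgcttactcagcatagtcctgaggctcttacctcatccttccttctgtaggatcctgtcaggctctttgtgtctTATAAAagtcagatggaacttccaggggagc
Ccl8: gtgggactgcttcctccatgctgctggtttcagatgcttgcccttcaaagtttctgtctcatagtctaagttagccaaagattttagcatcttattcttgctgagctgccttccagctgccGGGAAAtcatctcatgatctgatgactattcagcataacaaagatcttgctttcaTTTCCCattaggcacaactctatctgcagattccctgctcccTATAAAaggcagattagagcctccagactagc

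Both windows held TATAAA, starting at -31 in Ccl12 and -32 in Ccl8, counted from the annotated start. GGGAAA began at -198 in Ccl12 and at -129 and -74 in Ccl8. Of 32851 windows of 250 bases, 12.4% held TATAAA, 21.9% held GGGAAA and 2.54% held both. All motifs were searched on both strands. The letters TTCNNNGAA (GAS) and TGANTCA (AP1) and the interferon-stimulated response element (ISRE, as 2 GAAA repeats) were not in either window. Among all windows, 7.02% held GAS, 2.98% held ISRE and 6.75% held AP1. A match of letters is a description, not a bound site.

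The anti-CD40 library held 7087 barcodes and 53736318 gene UMIs, the isotype library 4908 barcodes and 26847799. After barcodes with 10% or more mitochondrial UMIs were left out, 4278 and 2558 cells remained, with medians of 8284.5 and 5446 UMIs. The libraries shared 13 barcodes, and 6 kept cells of each carried one. The sample labels name a CD45 gate, whereas the series text names DRAQ5, and gates for endothelial cells (53 anti-CD40 and 35 isotype cells) and fibroblasts (38 and 33) were not empty. Cells were gated by how many markers of a type had a UMI, and droplets with markers of phagocytes and of another class were kept apart as mixed. The 5′ kit counts a transcript once whatever its length, so levels of different genes were set side by side without a length correction. With 1 library per condition there was no test between conditions. All intervals are 95% intervals for counting error only, levels are UMIs per 1000000 gene UMIs of the gate (CPM), and a gene is counted as higher or lower past 2-fold with at least 30 UMIs in the higher library.

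The phagocyte gate, which holds monocytes and macrophages, took 2554 anti-CD40 and 814 isotype cells, or 59.7% and 31.8% of kept cells. All 9 phagocyte markers were detected in both, with summed levels of 15434 and 13370 CPM. Subsets were resident macrophages (513 and 307 cells), classical monocytes (131 and 58) and remaining phagocytes (1825 and 400). Nonclassical monocytes (85 and 49) and cycling phagocytes (259 and 17, which also sit in the other subsets) passed the minimum of 50 cells only in the anti-CD40 library. Clustered without the 5 genes, phagocytes of the libraries lay mostly in different clusters: clusters 0 and 1 held 33.0% and 33.0% of the anti-CD40 phagocytes, and cluster 2 held 66.2% of the isotype ones. In phagocytes, B cell markers summed to 225 anti-CD40 and 545 isotype CPM, and neutrophil markers to 379 and 112 CPM, and the part of other cells' RNA in the results was not tested.

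Ccl8, Ccl12 and Ccl7 were higher in anti-CD40 phagocytes, by 44.3-fold, 4.27-fold and 3.08-fold, while Ccl2 was 1.30-fold higher and Ccr2 did not keep 1 direction across settings. Thus 3 of 5 genes passed 2-fold upwards and 0 downwards, where 6.76% of 10657 genes tested passed upwards and 9.11% downwards. The median log2 ratio over those genes was -0.09.

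Ccl8 had 333 CPM in anti-CD40 phagocytes (10069 UMIs, interval 327 to 340), against 7.52 CPM in isotype phagocytes (45 UMIs, 5.48 to 10.1). Its ratio had an interval of 33.1 to 60.8. A sum over a gate does not part the number of cells with a transcript from the amount per cell. After thinning each cell to 1000 UMIs, 13.5% of anti-CD40 phagocytes and 0.528% of isotype phagocytes had a Ccl8 UMI (35.2% and 2.33% unthinned). Neutrophils, which should lack it, had 7.5% and 0% at the same thinning, and 54.1 and 0 CPM. The 0% was 0 of 113 cells, which allows a share of up to 2.65% at a floor of 3 counts (exact 95% limit 3.21%), and 0 UMIs allow up to 8.21 CPM at that floor (exact limit 10.1 CPM), all above the isotype phagocyte values. Isotype B cells, with 391 cells, had 0.612 CPM (0.0155 to 3.41), below the isotype phagocyte interval.

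Ccl12 had the highest level of the 4 ligands in anti-CD40 phagocytes, with 646 CPM (637 to 655) against 151 CPM (142 to 162) in isotype phagocytes, a ratio of 4.27 (3.99 to 4.57). A Ccl12 UMI was in 32.2% of anti-CD40 and 9.11% of isotype phagocytes after thinning (66.1% and 22.9% unthinned), against 5.0% and 0.885% of neutrophils. Ccl7 had 309 CPM (303 to 316) in anti-CD40 phagocytes and 100.6 CPM (92.7 to 109) in isotype phagocytes, a ratio of 3.08 (2.83 to 3.34). Its thinned shares were 18.3% and 5.42% of phagocytes (45.5% and 14.9% unthinned), against 4.5% and 1.77% of neutrophils. The share and the level ran the same way for both genes.

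Ccl2, the ligand most often measured as a monocyte attractant, differed least among the 4. It had 369 CPM (362 to 376) in anti-CD40 phagocytes and 285 CPM (271 to 299) in isotype phagocytes, a ratio of 1.30 (1.23 to 1.36). After thinning, 24.5% (22.8% to 26.2%) of anti-CD40 and 21.5% (18.7% to 24.6%) of isotype phagocytes had a UMI, and these intervals overlap (63.7% and 41.6% unthinned). At 2000 UMIs the shares were 37.0% (35.1% to 39.0%) and 27.7% (24.3% to 31.2%), which do not overlap. The ratio stayed under 2-fold in all 13 alternatives, with log2 values from 0.12 to 0.64. In isotype phagocytes Ccl2 was thus the leading ligand, and in anti-CD40 phagocytes Ccl12 was.

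**Figure D1:**
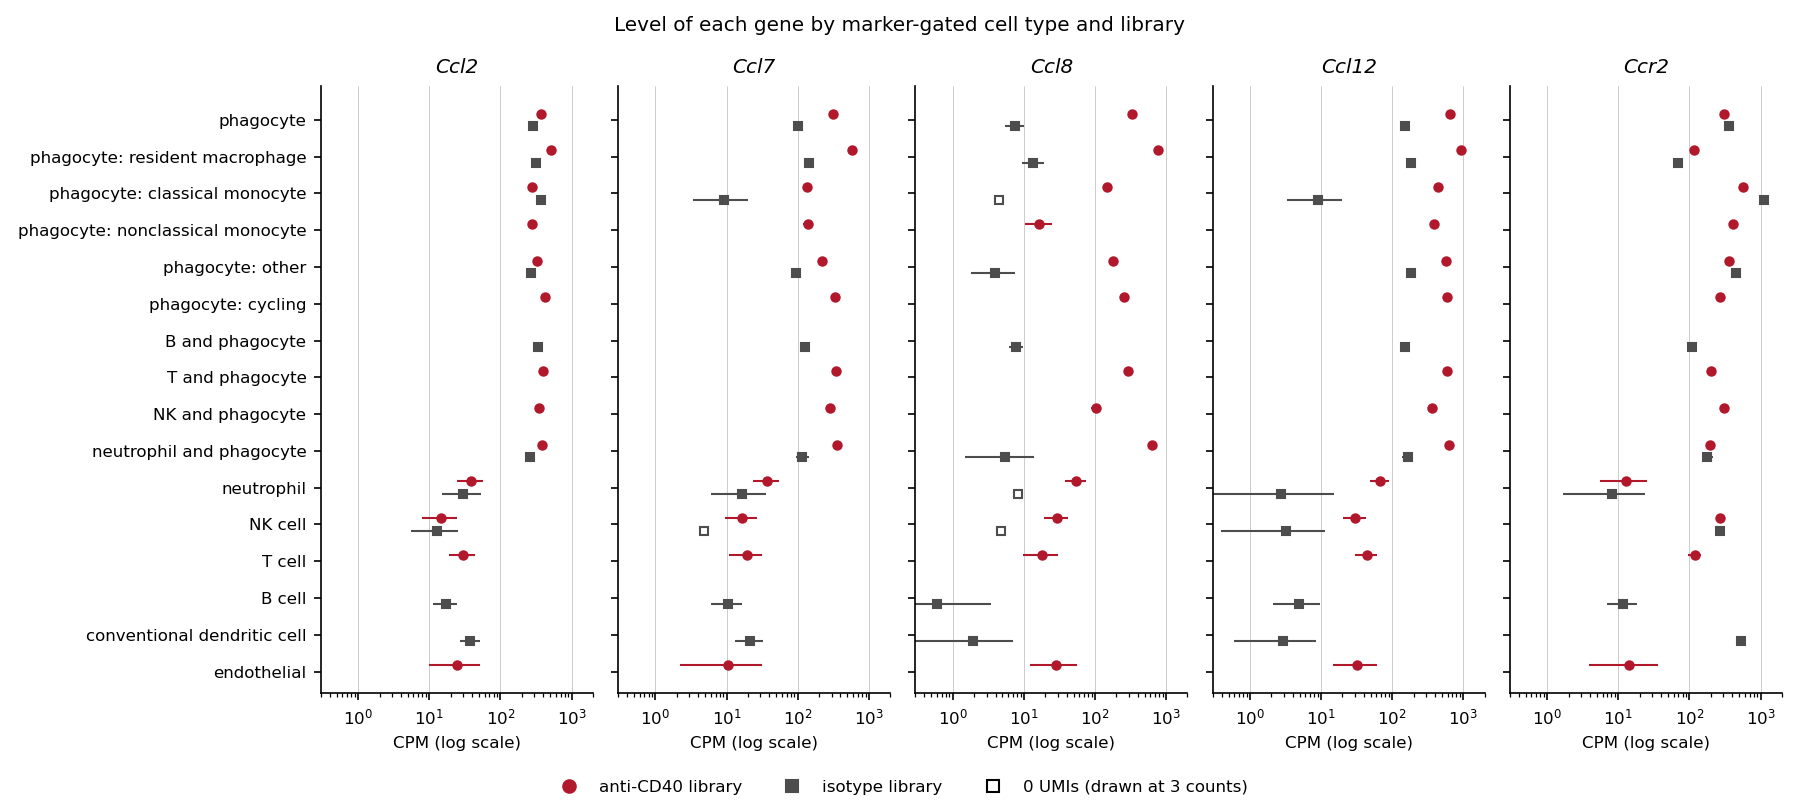
Level of the 5 genes (CPM, log axis) in each gated cell type with at least 50 cells, anti-CD40 as red circles above isotype as grey squares, with 95% Poisson intervals. Open squares mark 0 UMIs and are drawn at 3 counts. The ligands sit at 100.6 CPM or more in phagocytes except isotype Ccl8 at 7.52 CPM, and Ccr2 is highest in isotype classical monocytes at 1108 CPM.

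Resident macrophages, gated on Lyve1, Folr2, Cd163 and similar markers, had the highest level of every ligand among the anti-CD40 subsets. There Ccl12 had 928 CPM (907 to 949), Ccl8 775 CPM (756 to 794), Ccl7 583 CPM (567 to 600) and Ccl2 510 CPM (495 to 525). In isotype resident macrophages the order was different, with Ccl2 at 312 CPM (291 to 334), Ccl12 at 183 CPM (167 to 200), Ccl7 at 144 CPM (130 to 159) and Ccl8 at 13.7 CPM (9.57 to 18.9). The ratios were 56.7 for Ccl8 (40.9 to 81.0), 5.06 for Ccl12 (4.62 to 5.56), 4.05 for Ccl7 (3.65 to 4.51) and 1.64 for Ccl2 (1.52 to 1.76). So 3 of 5 genes were higher, where 7.75% of genes tested in this gate were higher and 6.87% lower. The resident marker list itself summed to 2054 CPM in anti-CD40 and 4233 CPM in isotype cells of the gate. Most of these cells came from different clusters, cluster 1 (74.1%) in the anti-CD40 library and cluster 2 (92.5%) in the isotype library.

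The remaining phagocytes, which passed no subset gate, had lower ligand levels than resident macrophages in the anti-CD40 library. Ccl12 had 563 anti-CD40 and 185 isotype CPM, Ccl2 322 and 266 CPM, Ccl7 219 and 94.6 CPM, and Ccl8 180 and 4.00 CPM (9 isotype UMIs). The ratios were 3.05 for Ccl12, 1.21 for Ccl2, 2.31 for Ccl7 and 44.9 for Ccl8 (23.6 to 98.4). Again 3 of 5 genes were higher, against 9.35% of genes tested in this gate (lower, 7.46%).

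Classical monocytes, gated on Ly6c2, Plac8, Chil3, Vcan and similar markers, had the ligands unevenly spread over cells. A Ccl2 UMI was in 61.1% and a Ccl12 UMI in 48.1% of anti-CD40 cells unthinned, and in 18.3% and 13.7% after thinning. In 131 anti-CD40 cells Ccl12 had 435 CPM, Ccl2 277 CPM, Ccl8 150 CPM and Ccl7 137 CPM. In 58 isotype cells Ccl2 had 377 CPM, Ccl12 and Ccl7 9.08 CPM each (6 UMIs each), and Ccl8 0 UMIs. Isotype neutrophils and B cells had 16.4 and 10.4 CPM of Ccl7, and 2.74 and 4.89 CPM of Ccl12, with overlapping intervals, so the isotype monocyte values of both genes are read as background. By count 3 of 5 genes were higher, against 9.93% of genes tested in this gate (lower, 7.33%).

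These monocyte values rested on few cells and on which monocytes the gate took. For Ccl8, 1 anti-CD40 cell held 227 of 300 UMIs, and without it the level was 37.0 CPM, below the 54.1 CPM of anti-CD40 neutrophils. Phagocyte markers summed to 7482 CPM in anti-CD40 and 1835 CPM in isotype cells of the gate, neutrophil markers to 1475 and 177 CPM. Cluster 15 held 52 anti-CD40 and 53 isotype classical monocytes, and cluster 0 held 67 anti-CD40 ones with C1qa, a complement gene of macrophages, at 3000 CPM. Within cluster 15, chosen after the data were seen, Ccl12 had 259 CPM in anti-CD40 and 9.10 CPM in isotype cells. There 1 anti-CD40 cell held 127 of 177 UMIs, and without it the level was 76.5 CPM, near the 66.8 CPM of anti-CD40 neutrophils. In the same cluster Ccl7 had 26.3 CPM in anti-CD40 cells and 0 UMIs in isotype cells, and Ccl8 41.0 CPM and 0 UMIs, each below its level in anti-CD40 neutrophils. The 67 cells of cluster 0 had 538 CPM of Ccl12, 352 of Ccl2, 249 of Ccl8 (38.9 without the richest cell) and 205 of Ccl7.

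Ccl2 in classical monocytes was 0.735 times the isotype level (0.632 to 0.858), the opposite direction to resident macrophages. The thinned shares were 18.3% (12.1% to 26.0%) of anti-CD40 and 17.2% (8.59% to 29.4%) of isotype cells, and 1 isotype cell held 74 of 249 UMIs. Without the richest cell of each library the levels were 243 and 274 CPM. In cluster 15 they were 124 CPM (99.4 to 154) in anti-CD40 and 257 CPM (216 to 303) in isotype cells. The log2 ratio stayed below 0 over 11 alternatives, between -0.99 in that cluster and -0.06 with a stricter gate.

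**Figure D2:**
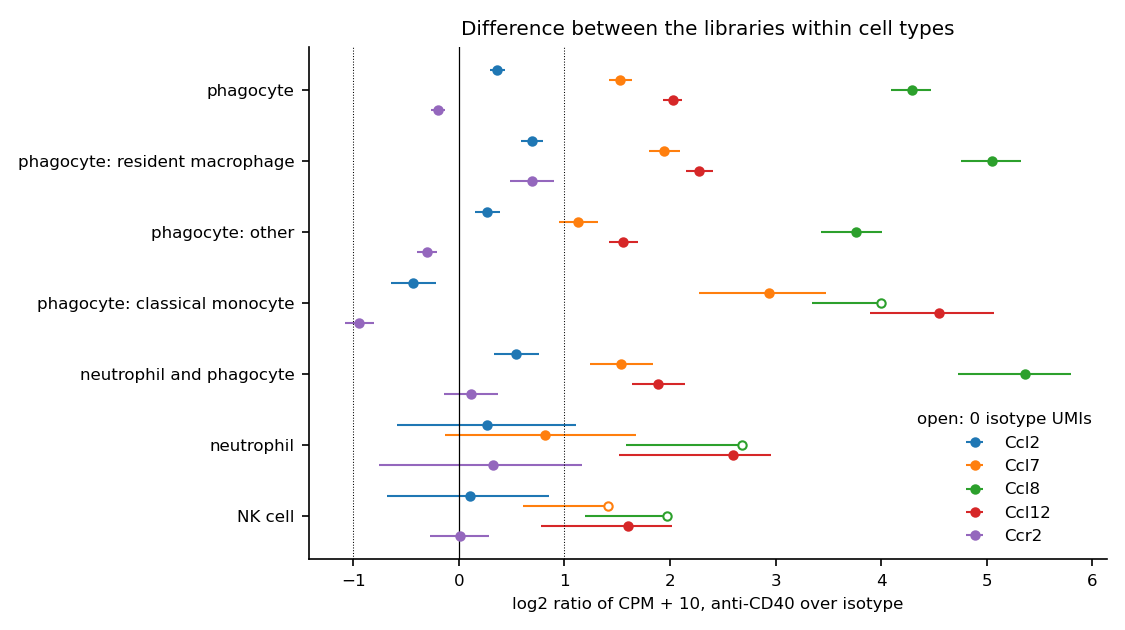
Log2 ratio of CPM + 10, anti-CD40 over isotype, for the 5 genes in gates with at least 50 cells in each library, with 95% counting intervals; open points have 0 isotype UMIs and dotted lines mark 2-fold. Of the 5 genes Ccl8 is highest in phagocytes at 4.29, in resident macrophages at 5.05 and in neutrophil and phagocyte droplets at 5.36. In classical monocytes Ccl12 is highest at 4.54, with Ccl8 at 4.00. Ccr2 is at -0.94 in classical monocytes and 0.69 in resident macrophages.

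Ccr2, the receptor, had its own pattern. It was highest in classical monocytes of the isotype library, at 1108 CPM, followed by classical monocytes of the anti-CD40 library, at 572 CPM (539 to 606), and isotype conventional dendritic cells, at 527 CPM (484 to 573), whose intervals overlap. Remaining phagocytes had 360 anti-CD40 and 445 isotype CPM, nonclassical monocytes 409 CPM in the anti-CD40 library, and NK cells 266 CPM (235 to 301) and 265 CPM (226 to 308). Anti-CD40 T cells had 119 CPM and resident macrophages 116 and 68.0 CPM. Isotype B cells had 11.6 CPM and neutrophils 12.7 and 8.21 CPM, from 8 and 3 UMIs.

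In classical monocytes Ccr2 was 0.516 times the isotype level (0.470 to 0.567), and it stayed lower in all 11 alternatives, with log2 values from -1.38 to -0.77. A Ccr2 UMI was nevertheless in 96.2% and 96.6% of these cells unthinned, and in 42.7% (34.1% to 51.7%) and 55.2% (41.5% to 68.3%) after thinning, where the intervals overlap. In cluster 15 the levels were 461 CPM (412 to 515) in anti-CD40 and 1218 CPM (1127 to 1314) in isotype monocytes. Ly6c2, the monocyte marker, ran the other way in that cluster, at 4633 and 1216 CPM.

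Resident macrophages went the opposite way for Ccr2, with a ratio of 1.70 (1.45 to 2.01) that stayed above 1 in all 10 alternatives. The transcript was in 28.7% of anti-CD40 and 11.7% of isotype resident cells unthinned, and 6.63% and 5.26% after thinning, where the intervals overlap. Ly6c2 and Chil3, 2 of the 7 classical monocyte markers, were also higher in this gate, and the other markers of that list are not given singly here. Ly6c2 had 50.6 CPM in anti-CD40 and 1.90 CPM in isotype resident cells, and Chil3 34.3 and 1.14 CPM. The Ly6c2 difference was not particular to phagocytes, with 1827 anti-CD40 and 71.2 isotype CPM in neutrophils and 791 and 466 CPM in NK cells. The part of monocyte-like cells in the Ccr2 ratio of this gate was not tested. In phagocytes as a whole Ccr2 had 309 CPM (303 to 316) in anti-CD40 and 356 CPM (341 to 371) in isotype cells. The thinned share ran against that, at 21.1% and 14.9% (51.7% and 26.2% unthinned), and 7 of 13 alternatives turned the direction of the level, 2 of them scalings that move all genes alike, so no order is read. In NK cells the ratio was 1.01 (0.824 to 1.23).

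The ligands differed in how they were spread over phagocytes. The 10% of anti-CD40 phagocytes richest in each gene held 86.8% of Ccl8 UMIs, 67.9% of Ccl7, 57.5% of Ccl12, 52.7% of Ccl2 and 48.7% of Ccr2. In isotype phagocytes the same 10% held 100% of Ccl8, 93.5% of Ccl7, 87.3% of Ccl12, 77.7% of Ccr2 and 67.3% of Ccl2, where fewer cells had any UMI and cells were shallower. The richest phagocyte held 227 Ccl8 UMIs in the anti-CD40 library and 10 in the isotype library. Without the 1% of phagocytes richest in each gene, the log2 ratio was 2.56 for Ccl12 and 2.04 for Ccl7, against 2.02 and 1.53 with them.

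**Figure D3:**
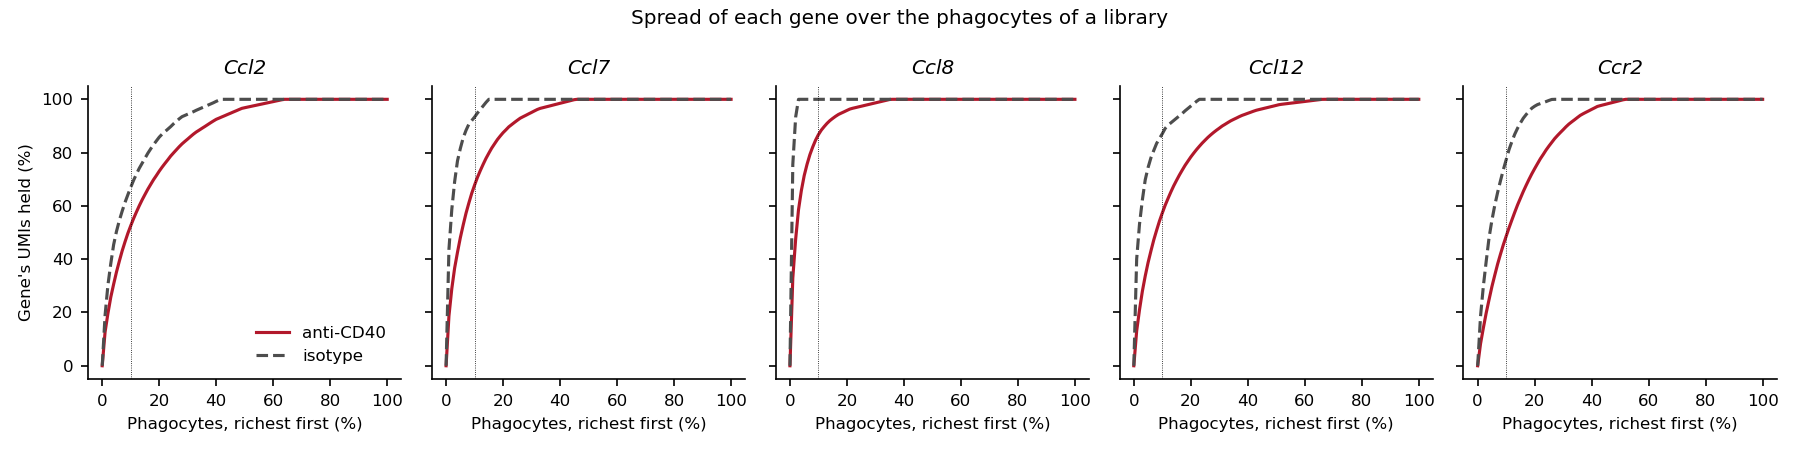
Cumulative share of each gene's UMIs (%) over phagocytes ranked by their UMIs of it, anti-CD40 solid red and isotype dashed grey, with a dotted line at the richest 10% of cells. Ccl8 rises fastest, with 86.8% of its anti-CD40 UMIs in those cells, and Ccr2 slowest with 48.7%.

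Over all phagocytes, ligands were found together in the same cells and Ccr2 more often in cells without them, but these differences varied between subsets. Cells were thinned to 2000 UMIs for this, which left 2337 anti-CD40 and 676 isotype phagocytes. Of anti-CD40 cells 31.5% had none of the 4 ligands and 3.64% all 4, against 62.6% and 0% of isotype cells. A Ccl2 UMI was in 58.4% (54.5% to 62.3%) of anti-CD40 phagocytes with Ccl7 and in 29.0% (26.9% to 31.2%) of those without. In isotype phagocytes these shares were 62.0% (47.2% to 75.3%) and 24.9% (21.6% to 28.5%). Ccl8 was the ligand least tied to Ccl2, which was in 47.2% of anti-CD40 phagocytes with Ccl8 and 34.8% of those without. Among anti-CD40 resident macrophages Ccl2 was in 51.6% (44.3% to 58.8%) with Ccl8 and 48.4% (42.8% to 54.1%) without. With and without Ccl7 it was there in 58.8% (52.4% to 65.0%) and 40.7% (34.6% to 47.0%). In isotype phagocytes Ccl8 was in 0 of 50 cells with Ccl7 and 6 of 626 without.

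Ccr2 was in 16.0% (12.7% to 19.9%) of anti-CD40 phagocytes with Ccl8 and in 37.1% (34.9% to 39.3%) of those without. The shares were 18.4% and 38.8% for Ccl7, 27.1% and 38.3% for Ccl12, and 26.9% and 37.0% for Ccl2. In isotype phagocytes Ccr2 was in 6.0% (1.25% to 16.5%) of cells with Ccl7 and 21.4% (18.3% to 24.8%) of those without, and in 7.69% with and 22.2% without Ccl12. Among anti-CD40 remaining phagocytes the gap held, with Ccr2 in 22.3% of cells with Ccl7 and 42.0% of those without. Among anti-CD40 resident macrophages it was in 10.8% with Ccl7 and 10.1% without, and in 6.77% (3.65% to 11.3%) with Ccl8 and 12.7% (9.20% to 16.8%) without. Among anti-CD40 classical monocytes Ccr2 was in 71.4% (53.7% to 85.4%) of cells with Ccl2 and 62.5% (52.0% to 72.2%) of those without, and in 63.3% with and 65.3% without Ccl12. Cells of a library are not replicates, so these shares describe the libraries.

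**Figure D4:**
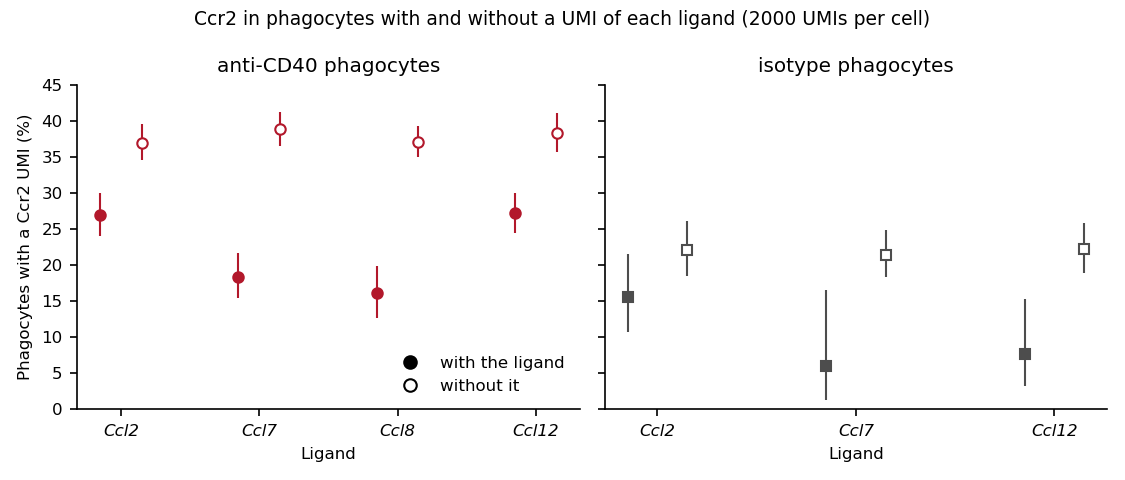
Share of phagocytes with a Ccr2 UMI (%) among cells with (filled) and without (open) a UMI of each ligand, after thinning to 2000 UMIs per cell, with 95% Clopper-Pearson intervals; Ccl8 is left out for isotype because 6 cells had it. In anti-CD40 phagocytes the gap is widest for Ccl8, at 16.0% and 37.1%.

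Mixed droplets held a large share of the ligand UMIs in the isotype library. In the isotype library, 496 droplets with B cell and phagocyte markers held 62.1% of all Ccl2 UMIs of kept cells, 63.0% of Ccl7, 59.7% of Ccl8 and 59.4% of Ccl12, but 25.2% of Ccr2, and they held 45.6% of all gene UMIs of kept cells. Isotype phagocytes held 30.4%, 29.2%, 33.6%, 33.9% and 47.3%, with 26.4% of all gene UMIs. In the anti-CD40 library phagocytes held between 64.6% (Ccl8) and 73.8% (Ccr2) of each gene, with 63.7% of all gene UMIs, so Ccl8 was near the share of the gate. The isotype B cell and phagocyte droplets had a median of 15999 UMIs, against 6397.5 in isotype phagocytes, and their makeup was not tested. The 308 anti-CD40 and 62 isotype droplets with neutrophil and phagocyte markers had 628 and 5.49 CPM of Ccl8 (4 isotype UMIs), and 1 of the anti-CD40 droplets held 532 of 2961 Ccl8 UMIs. Among them 3 of 5 genes were higher, against 13.1% of genes tested (lower, 4.9%).

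Neutrophils had 66.8 and 2.74 CPM of Ccl12, 54.1 and 0 CPM of Ccl8, 38.2 and 30.1 CPM of Ccl2, and 36.6 and 16.4 CPM of Ccl7, in the anti-CD40 and the isotype library. Only 2 of the 5 genes, Ccl12 and Ccl8 with 42 and 34 anti-CD40 UMIs, reached 30 UMIs in neutrophils and could be counted. Both were higher, against 13.4% of genes tested in neutrophils (lower, 16.8%). Anti-CD40 T, NK and endothelial cells had 30.2 to 43.8 CPM of Ccl12 and 18.1 to 29.1 CPM of Ccl8, and these intervals overlap with each other. In NK cells 1 of 5 genes, Ccr2, reached 30 UMIs, so 0 of the 4 ligands could be counted; of all genes tested there 6.4% were higher and 8.3% lower. NK cells had 29 anti-CD40 and 2 isotype UMIs of Ccl12, a ratio of 9.45 (2.39 to 81.7), and 28 and 0 UMIs of Ccl8. Phagocyte markers moved the same way in these gates, with summed levels of 1015 and 493 CPM in neutrophils and 369 and 222 CPM in NK cells. C1qa had 310 and 123 CPM in neutrophils. The part of phagocyte RNA in these ligand values was not tested. In neutrophils the intervals of the Ccl2 ratio (0.598 to 2.87) and the Ccl7 ratio (0.882 to 6.69) include 1. Cells that passed no gate (409 and 309) had 3 of 5 genes higher, against 9.97% of genes tested (lower, 5.79%), and all kept cells together had 3 of 5, against 6.04% (lower, 12.8%).

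The CCR2 antibody tag varied less between cell types than the Ccr2 transcript. The antibody features are named TotalSeqA in the files, whereas the labels name a 5′ kit, and how the tags were captured could not be checked. The tag was 9.59 per 10000 tag UMIs (9.40 to 9.78) in anti-CD40 and 10.9 (10.5 to 11.4) in isotype phagocytes. The 9 control antibodies had medians of 0.430 and 0.659 there, and the highest of them had 3.04 and 3.06. Per control antibody UMI the tag in phagocytes was 1.45 and 1.31. The tag in neutrophils was 7.20 and 6.71 per 10000, although their Ccr2 transcript was near 0, and in isotype B cells 6.91. Among gated cell types with at least 50 cells the highest value was 15.2 (12.8 to 17.8) in isotype classical monocytes, against 7.53 (6.68 to 8.44) in anti-CD40 classical monocytes, the same direction as the transcript. These came from 290 anti-CD40 and 150 isotype tag UMIs, a median of 1 and 2 per cell. Per control antibody UMI the levels were 1.21 and 2.68. Isotype cells that passed no gate, with a median of 731 gene UMIs, had 18.6.

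In resident macrophages the tag had 9.35 (9.03 to 9.69) and 11.3 (10.7 to 11.9), opposite in direction to the transcript, and the direction turned per control antibody UMI (1.503 and 1.395). In NK cells it had 9.09 (7.76 to 10.6) and 10.9 (9.30 to 12.6), and in anti-CD40 T cells 5.02. Anti-CD40 phagocytes with 0, 1 to 3 and over 3 Ccr2 UMIs had 9.45, 9.06 and 10.1 tag UMIs per 10000. The isotype ones had 11.005, 8.49 and 12.3. Per control antibody UMI the anti-CD40 bins had 1.35, 1.43 and 1.61 and the isotype bins 1.23, 1.08 and 2.08. The bin with over 3 Ccr2 UMIs was thus highest in both libraries by both measures, and only the lower anti-CD40 bins changed order. Its cells were also deeper, with medians of 16301.5 anti-CD40 and 11378 isotype gene UMIs, against 6887 and 5358 at 0 Ccr2 UMIs. Among anti-CD40 remaining phagocytes the bins had 9.88, 9.96 and 9.85 per 10000.

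**Figure D5:**
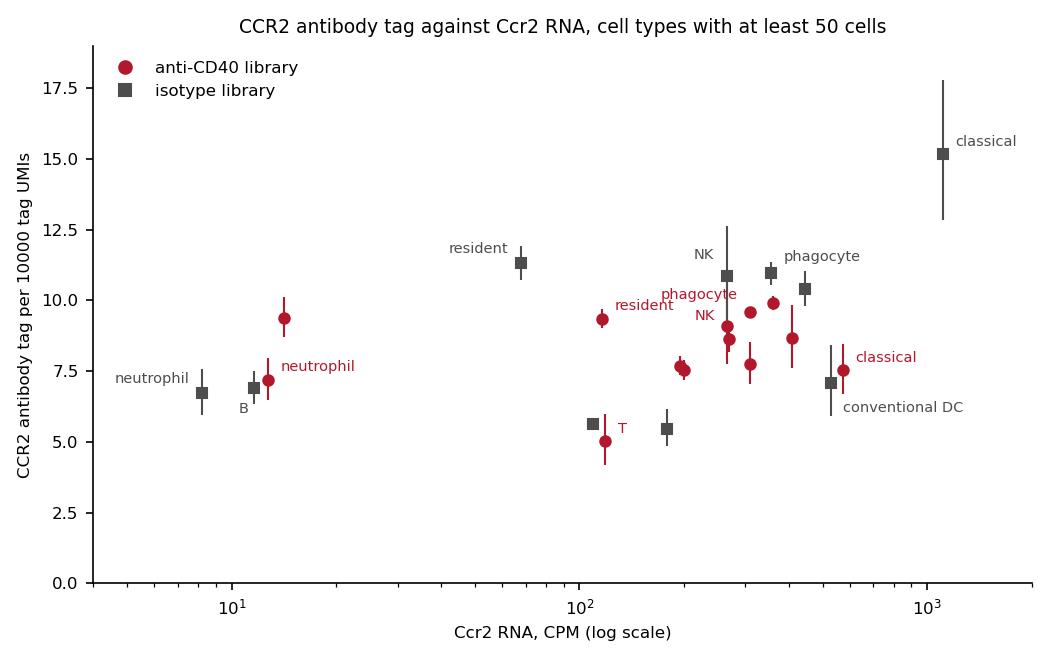
CCR2 antibody tag per 10000 tag UMIs (95% Poisson intervals) against Ccr2 RNA (CPM, log axis) for gates with at least 50 cells, mixed droplets included without a name, anti-CD40 as red circles and isotype as grey squares. Points from 8.21 to 572 CPM of Ccr2 all lie between 5.02 and 11.3 on the tag axis, and isotype classical monocytes at 1108 CPM stand at 15.2.

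Other genes of the pathway were followed in phagocytes by fixed lists. Of the other receptors of these ligands, Ccr1 had 61.4 and 64.0 CPM in anti-CD40 and isotype phagocytes, within 2-fold. Ccr8, the receptor of mouse Ccl8, had 0 UMIs in both, and Ccr3 had 2 and 1. Of the atypical receptors, which do not signal through G proteins, Ccrl2 had 63.0 and 55.3 CPM, Ackr1 and Ackr2 had at most 4 UMIs and Ackr4 had 0. The neighbouring chemokine genes were nearly silent, with 1 and 0 UMIs of Ccl11 and 0 of Ccl1. Ccl11 lies between Ccl7 and Ccl12.

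Of 6 measured genes of other monocyte recruitment, 1 was higher and 2 were lower. The growth factor Csf1 had 9.63 and 2.34 CPM, its receptor Csf1r 458 and 976 CPM, and the eosinophil attractant Ccl24 2.12 and 105 CPM. Il34 had 0 UMIs in both libraries. Cx3cr1, the fractalkine receptor of resident and nonclassical cells, had 284 and 443 CPM. Among 5 measured inducers, 2 were higher and 1 lower. Cd40 itself had 96.4 and 19.9 CPM, Ifng 1.82 and 0.668 CPM (55 and 4 UMIs), Il1b 108 and 229 CPM and Tnf 70.0 and 79.5 CPM.

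Among transcription factors, Irf1, which is induced by interferon, was higher, with 325 CPM in anti-CD40 and 81.4 CPM in isotype phagocytes. The AP1 genes Jun and Fos were lower, Jun with 863 and 2282 CPM and Fos with 802 and 1634 CPM. Both genes are also on the list of genes that tissue digestion is known to induce, given below. The kappaB genes Nfkb1, Nfkb2, Rel, Rela and Relb stayed within 2-fold. Of 5 genes of mRNA decay and feedback 1 was lower, Zfp36 with 273 and 603 CPM, which binds AU-rich elements of cytokine transcripts. Its relative Zfp36l1 had 233 and 449 CPM, Nfkbia 431 and 443 CPM, and the feedback inhibitor Tnfaip3 36.9 and 59.1 CPM.

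Receptor signalling genes mostly stayed within 2-fold, with 10 of 12 between and 2 lower, the G protein regulator Rgs2 (182 and 370 CPM) and the kinase gene Pik3cg (24.9 and 52.0 CPM). Stat3 had 111 and 83.5 CPM and Jak2 39.0 and 30.6 CPM. Of 5 heparan sulfate genes, whose products hold chemokines on cell surfaces, 1 was lower, Ndst1 with 10.7 and 22.1 CPM. Sdc3 had 247 and 148 CPM, Sdc4 143 and 109 CPM, and Hs6st1 19.2 and 38.1 CPM. Genes that tissue digestion is known to induce were lower for 13 of 14 members, with a median log2 ratio of -1.52 against -0.09 over all genes tested. Nr4a1 had 20.2 and 108 CPM, Hspb1 8.11 and 50.1 CPM, Atf3 137 and 276 CPM, and Dusp1 345 and 591 CPM. The part of digestion in the members' values was not tested.

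The genes most like each member were ranked by Pearson r of log2(CPM + 10) over 20 points, each a cell type in a library with at least 50 cells, among 5842 genes that reached 50 CPM in one of them. Ccl2 was most like Msr1 (r = 0.98), a scavenger receptor, and Ctsb (0.959), a lysosomal protease. Ccl7 was most like Siglec1 (0.961), C1qb (0.933) and C1qa (0.924), and Ccl12 most like C1qb (0.958), C1qa (0.943) and C1qc (0.931), the subunits of complement C1q. Ccl8 was most like Gbp2b (0.928), Cxcl13 (0.913) and C4b (0.896), which are a guanylate-binding protein induced by interferon, a B cell attractant and a complement component. Ccr2 was most like Glud1 and Rnh1 (0.883 each) and Copz1 (0.866). Among the members, Ccl7 and Ccl12 were most alike (0.951), then Ccl2 and Ccl7 (0.846), and Ccr2 had 0.477 with Ccl2 and 0.0994 with Ccl8. These are descriptions, since the points share libraries, depth and phagocyte RNA in mixed droplets. C1qa, C1qb and C1qc are also markers of the phagocyte gate, which set many of the points. Their likeness to other genes of phagocytes thus follows in part from the gating.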

How the data were processed

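What the authors deposited are UMI counts, whole and not normalized, for each gene or antibody tag in each droplet, from a 10x 5′ kit per the labels' protocols. Cell Ranger 6.0.1 wrote the matrices, per the file headers. Cell Ranger 3, Seurat 3, mm10 and GRCh38 appear in the submitters' processing notes, with no role given. The strand setting and how barcodes were selected are not given in the sources used here. Symbols and IDs are those of the files: Ccl2 ENSMUSG00000035385, Ccl7 ENSMUSG00000035373, Ccl8 ENSMUSG00000009185, Ccl12 ENSMUSG00000035352 and Ccr2 ENSMUSG00000049103.

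A barcode entered when it had 200 or more genes and less than 10% of its UMIs from mitochondrial genes. A cell was gated when enough distinct markers had a UMI: phagocyte 4 of 9, neutrophil 5 of 10, B cell 5 of 10, T cell 3 of 8 and NK cell 3 of 9. Within phagocytes, resident macrophages needed 4 of 8 and classical monocytes 4 of 7, and cells with the monocyte markers and Csf1r counted as phagocytes too. These minimums were set after marker distributions were seen, without the members' values. No doublet caller was run, and droplets with 2 classes were kept apart. Members and lists were chosen with earlier results of these data known. From each pathway list the 2 highest and 2 lowest ratios with at least 30 UMIs, and genes at 0, were to be named. A few items that this rule names are not reported here. Counts were summed per gate and library, with exact Poisson intervals for levels, exact conditional binomial intervals for ratios and Clopper-Pearson intervals for shares (scipy 1.17.1). Ratios of summed counts, 2-fold calls and ratio intervals were tested on simulated phagocyte sums, drawn without the clumping of UMIs in single cells. The intervals of levels and of shares were not tested in this way. Scaling alternatives used TMM factors (edgeR 4.0.16), and clusters used scanpy 1.11.5 with 2000 variable genes, 30 components, 15 neighbours and resolution 1.0, giving 22 clusters. No per-sample column was left out (0). Promoter sequences and positions are RefSeq's, on GRCm38.p6.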

Additional observations from a re-analysis of the deposited data

Results flagged for a closer look

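By summed level, Ccl2 and Ccr2 each ran in opposite directions in resident macrophages and classical monocytes, and for Ccl2 this rested in part on 1 cell. Ccl2 in anti-CD40 cells was 1.64 times the isotype level in resident macrophages and 0.735 times in classical monocytes. In the latter, 1 isotype cell held 74 of 249 Ccl2 UMIs. Without the richest cell of each library the levels were 243 anti-CD40 and 274 isotype CPM. A Ccl2 UMI was in 80 of 131 anti-CD40 and 29 of 58 isotype monocytes unthinned, and the intervals of the thinned shares overlapped. So no firm direction is read for Ccl2 in classical monocytes. Ccr2 was 1.7 times the isotype level in resident macrophages and 0.516 times in classical monocytes. With 1 library per condition the difference between the subsets was not tested. Monocyte and macrophage markers within each of these gates also differed between the libraries.

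The barcodes left out for mitochondrial UMIs, 2767 in the anti-CD40 and 2245 in the isotype library with at least 200 genes, entered no comparison and had UMIs of all 5 genes. Ccl8 had 228 CPM in anti-CD40 (1422 UMIs) and 1.71 CPM in isotype (7 UMIs) barcodes of this kind. Ccl12 had 307 and 72.6 CPM, Ccl7 245 and 71.3 CPM, Ccl2 287 and 192 CPM, and Ccr2 252 and 64.5 CPM.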

How the results depend on the processing

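No paired analysis was possible because each condition is 1 library, and for the same reason no replicate could be left out. All values here are log2 ratios of CPM + 10, anti-CD40 over isotype, in phagocytes, unless named otherwise. As reported they were 0.36 for Ccl2, 1.53 for Ccl7, 4.29 for Ccl8, 2.02 for Ccl12 and -0.20 for Ccr2. Over 13 alternatives each of the 4 ligands kept its direction, within 0.12 to 0.64, 1.25 to 2.04, 2.74 to 5.29 and 1.79 to 2.56, while Ccr2 turned in 7 of 13. Limits of 500 genes and 5% mitochondrial UMIs changed more than 1 value: Ccl2 had 0.56, Ccl7 2.0, Ccl12 2.29 and Ccr2 -0.38, and without a mitochondrial limit Ccr2 had -0.024. A stricter gate gave Ccr2 -0.32. A looser gate gave Ccl2 0.27, Ccl7 1.40, Ccl8 4.56, Ccl12 1.90 and Ccr2 0.33. Leiden clusters gave Ccl2 0.12, Ccl7 1.25, Ccl12 1.84 and Ccr2 0.020. The TMM factors correspond to a log2 shift of 0.29 before the prior is added, and took the median of all genes to 0.09, against -0.09. It gave Ccl2 0.64, Ccl7 1.80, Ccl8 4.49, Ccl12 2.30 and Ccr2 0.081, and median-of-ratios scaling gave 0.64, 1.80, 4.49, 2.30 and 0.086 for the same genes. The mean over cells gave Ccl2 0.26 and Ccr2 0.28, and Ccr2 0.47 in remaining phagocytes. Without the 1% of cells richest in the gene, Ccl2 had 0.50, Ccl7 2.04, Ccl12 2.56 and Ccr2 -0.019. A prior of 50 CPM gave Ccl7 1.25, Ccl8 2.74 and Ccl12 1.79, and a prior of 1 CPM gave Ccl8 5.29. In 2 alternatives chosen after seeing the data, counting mixed droplets with phagocytes gave Ccl2 0.25, Ccl7 1.41 and Ccr2 0.47, and requiring 7 of 9 markers gave Ccl2 0.57 and Ccr2 0.29. The cause of these changes was not tested.

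Of genes tested in phagocytes, 720 were over 2-fold higher and 971 lower at a minimum of 30 UMIs. A minimum of 10 gave 1512 lower, of 100 gave 516 lower, and no minimum gave 3058 higher and 3691 lower. The share of phagocytes with a UMI, anti-CD40 minus isotype, differed at 1000 UMIs by 2.92 points for Ccl2, 12.8 for Ccl7, 12.9 for Ccl8, 23.1 for Ccl12 and 6.14 for Ccr2. At 2000 UMIs these were 9.35, 19.9, 17.3, 31.8 and 12.98 points, and unthinned 22.1, 30.6, 32.9, 43.3 and 25.5. The log2 ratio of the CCR2 tag was -0.19 in phagocytes, 0.14 per control antibody UMI and 0.033 by the median centred log ratio. In resident macrophages those 2 measures gave 0.11 and 0.18, so no direction is read for the tag there. Depth limits gates with few isotype UMIs, such as classical monocytes, with 6 each of Ccl7 and Ccl12, and neutrophils, with 1 of Ccl12 and 0 of Ccl8.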

Other observations

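Fibroblasts, gated on collagen and similar genes, passed under the minimum of 50 cells in both libraries and entered no comparison. The 38 anti-CD40 fibroblasts held 141 Ccl2 UMIs (445 CPM) and the 33 isotype fibroblasts held 4 (9.76 CPM). For Ccl7 the counts were 97 and 3 UMIs (306 and 7.32 CPM), for Ccl8 26 and 2, and for Ccl12 2 and 2. Ccl12, which had the highest ligand level in anti-CD40 phagocytes, had 6.31 and 4.88 CPM in these fibroblasts. One anti-CD40 fibroblast held 45 of the Ccl2 UMIs and 1 held 45 of the Ccl7 UMIs.

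Cycling phagocytes of the anti-CD40 library (259 cells) had 593 CPM of Ccl12, 425 of Ccl2, 335 of Ccl7, 270 of Ccr2 and 254 of Ccl8. Conventional dendritic cells, 33 in the anti-CD40 and 65 in the isotype library, had 359 and 527 CPM of Ccr2, and 139 and 2.896 CPM of Ccl12 from 74 and 3 UMIs. The makeup of this gate differed too, with C1qa at 553 anti-CD40 and 30.9 isotype CPM and Cd209a at 26.3 and 727 CPM. The part of macrophage RNA in its Ccl12 values was not tested.

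In the isotype library 1 endothelial cell carried 16092 CCR2 tag UMIs. The tag in the 35 isotype endothelial cells was 427 per 10000 tag UMIs with this cell and 18.8 without it, against 9.38 in 53 anti-CD40 endothelial cells.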
